A study of Mus musculus with 12 samples.

Results

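The complement genes described here are C3, C4b, C1ra, C1s1, Cfb, Serping1, Cd55 and Cd59a, measured in the hippocampus of C57BL/6J mice aged 15 days. They were chosen by name, and all 8 were found among the 54532 genes of the deposited expression table. Each pup had received a subcutaneous injection on day 3 and an intraperitoneal injection on day 14. Each injection held either saline or bacterial lipopolysaccharide (LPS, 5 mg/kg), a component of the bacterial outer membrane that triggers innate immunity. The 4 groups are called LL (LPS on both days), SL (saline then LPS), LS (LPS then saline) and SS (saline on both days), with 3 animals each. Whole hippocampi were taken 24 h after the second injection, and the labels do not give the sex of the animals. The design compares the response to LPS on day 14 in pups that had and had not met LPS on day 3.

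Complement is a cascade of proteins that tag targets for uptake and can open membranes. In the classical pathway the proteases C1r and C1s, held by C1q, cut C4 and so build the enzyme that cuts C3. In the alternative pathway factor B (Cfb) joins a C3 fragment to amplify it. C1 inhibitor, encoded by Serping1, blocks C1r and C1s. CD55 takes apart the enzymes that cut C3, and CD59 blocks the pore that ends the cascade. In brain these genes are used by astrocytes, microglia and other cells, and C3 and Serping1 are common markers of reactive astrocytes. The choroid plexus and blood cells also make complement transcripts.

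Levels are in FPKM, computed by the authors as a fragment count divided by gene length and by a divisor close to the library's fragment total. The 12 libraries held 16979666 to 24105022 fragments, with 21926635 to 24105022 in LL, 18258513 to 20801651 in SL, 18549883 to 20012420 in LS and 16979666 to 18425733 in SS. Differences below are log2 differences of FPKM + 0.5 with their standard error (SE), fitted with limma over 17687 tested genes. A gene is called when its adjusted p (Benjamini-Hochberg, over all tested genes) is under 0.05. All 8 genes entered the test, Cfb through the SL libraries alone. In bulk tissue, fewer cells of a type and less RNA per cell cannot be told apart. The labelled tissue had its neuronal markers, whose summed level over 5 genes was 367 to 409 FPKM in LL, 388 to 448 in SL, 400.0 to 407 in LS and 415 to 445 in SS.

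LPS on day 14 raised C3, C4b, C1ra, C1s1, Cfb and Serping1 when saline had been given on day 3 (SL against SS), and lowered Cd59a. That was 6 genes called higher, where 7.06% of all tested genes were, and 1 called lower, where 3.77% were; Cfb is among the 6 and was bound to differ, since it entered the test through SL. After LPS on day 3 (LL against LS) 4 of the 8 were called higher, C3, C4b, C1ra and C1s1, where 2.4% of tested genes were. None was called lower by limma, where 0.26% were, and none had an unadjusted p under 0.05 in that direction or was called lower by limma voom. The difference between these responses (the interaction, LL minus LS minus the SL minus SS difference) was called negative for 5 genes, where 3.19% of tested genes were, and positive for Cd59a, where 2.14% were. Set directly against SL, LL was lower for 6 of the 8 genes (5.46% of tested genes), Cfb again among them, and higher for Cd59a (3.32%). With a choroid plexus covariate, described below, limma called 0 of the 8 genes in LL against LS and 2 for the interaction, C3 and C4b. The median log2 difference of the 8 genes was 2.62 in SL against SS and 0.71 in LL against LS, and over all tested genes it was -0.00 in both.

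**Figure D1:**
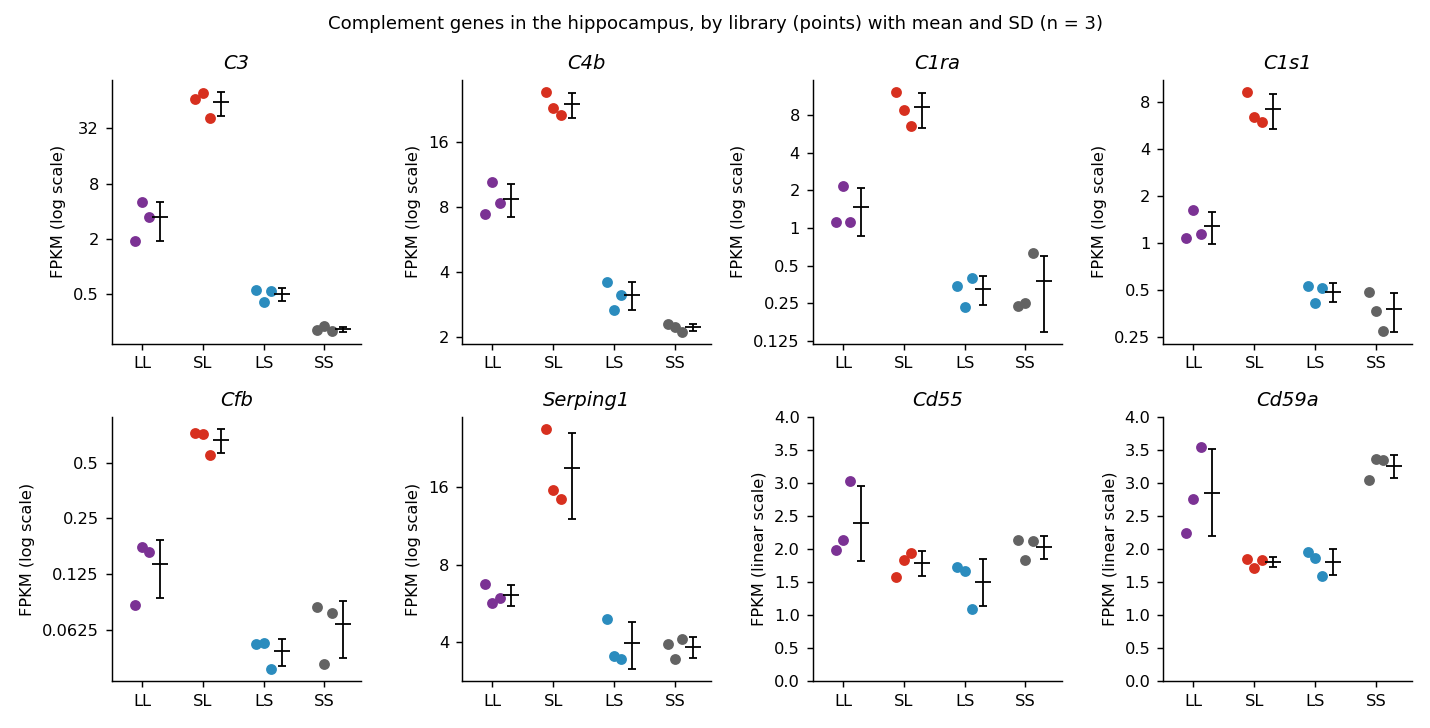
FPKM of the 8 complement genes in each library (points, 3 animals per group), with the mean and SD beside them; 6 panels have a log axis, and those of Cd55 and Cd59a a linear axis from 0. SL libraries are highest for C3, C4b, C1ra, C1s1, Cfb and Serping1, with no overlap with any other group. Of all tested genes, 13.8% had SL above SS without overlap and 13.9% had LL below SL without overlap. Cfb entered the test through SL alone, so its separation was fixed by the filter. For Cd59a the SL and LS libraries (1.59 to 1.95 FPKM) lie below the LL and SS libraries (2.24 to 3.55).

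C3, the protein on which the pathways meet, showed the widest span of the 8. It had 1.92, 5.11 and 3.45 FPKM in LL animals, 66.8, 77.3 and 41.5 in SL, 0.564, 0.415 and 0.549 in LS, and 0.206, 0.225 and 0.200 in SS. No libraries of different groups overlapped, and the order was SL, LL, LS, SS from the highest down. The SS libraries rest on 18 to 20 C3 fragments each, against 3851 to 7666 in SL. The mean was 294-fold higher in SL than in SS and 6.86-fold higher in LL than in LS.

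On the log2 scale C3 rose by 6.41 in SL against SS (SE 0.28, limma adjusted p = 6.71e-08) and by 1.90 in LL against LS (SE 0.28, adjusted p = 0.00398). Its interaction was -4.51 (SE 0.39, adjusted p = 7.34e-05), the most negative of the 8 genes. Between the groups that both received LPS on day 14, C3 was 4.00 lower in LL than in SL (log2 difference -4.00, SE 0.28, adjusted p = 6.71e-06). In FPKM, the increase of LL over LS was 4.84% of the increase of SL over SS. The LL against LS call was lost when a choroid plexus score (the mean log2 level of 8 marker genes) entered as a covariate (1.72, adjusted p = 0.385), and it held without any single library. Without LS replicates 2 and 3 together, which leaves LS replicate 1 alone in its group, the difference was 1.82.

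The C3 start site lies on the minus strand of chromosome 17 (gene at 57203970 to 57228136, mm10), and its promoter is shown because C3 had the largest change. The window below runs from 250 bases before to 50 bases after the RefSeq start (RefSeq on GRCm38.p6, minus strand, chr17:57228087-57228386). Capitals mark its 1 match to the C/EBP motif TTGCNNAA, which begins 45 bases before the start.
C3: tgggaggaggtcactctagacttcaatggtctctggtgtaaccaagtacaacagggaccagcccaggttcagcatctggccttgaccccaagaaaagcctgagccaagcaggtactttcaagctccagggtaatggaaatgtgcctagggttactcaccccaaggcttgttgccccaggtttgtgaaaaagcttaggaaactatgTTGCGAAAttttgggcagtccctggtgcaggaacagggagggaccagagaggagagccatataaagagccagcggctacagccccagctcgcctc
C/EBP proteins are transcription factors active in acute-phase genes. The same motif, on either strand, occurs in 10.8% of 32851 RefSeq promoter windows of this length, and the match is a description of the letters alone. A window was found for 5 of the 8 genes (C3, C1ra, C1s1, Cd55 and Cd59a). None of the windows holds the NF-kB motif GGGNNNTTCC, found on either strand in 5.56% of promoters.

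C4b, the mouse gene for the C4 protein, had 7.38, 10.4 and 8.36 FPKM in LL, 27.3, 22.9 and 21.2 in SL, 3.61, 2.68 and 3.12 in LS, and 2.30, 2.23 and 2.12 in SS. Its groups did not overlap and stood in the same order as those of C3, over a much smaller span. C4b rose by 3.15 in SL against SS (SE 0.13, limma adjusted p = 4.93e-08) and by 1.34 in LL against LS (SE 0.13, adjusted p = 0.000279). The interaction was -1.82 (SE 0.18, adjusted p = 0.000183), and LL was 1.41 below SL (log2 difference -1.41, adjusted p = 4.80e-05). Of the 6 genes that rose in SL, C4b had the largest part of its FPKM increase in LL over LS, at 25.8%; the other 5 lay between 4.84% and 15.8%. The LL against LS call was lost with that covariate (1.08, adjusted p = 0.115), and held without any single library. Without LS replicates 2 and 3 the difference was 1.15.

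Levels per length put C3 above C4b in SL alone. The ratio of C3 to C4b in FPKM was 0.260 to 0.493 in LL, 1.96 to 3.37 in SL, 0.155 to 0.176 in LS and 0.0894 to 0.101 in SS. The ranges of all 4 groups were separate. The ratio was not tested.

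C1ra and C1s1 encode the proteases of the C1 complex and lie 6901 bases apart on chromosome 6, C1ra on the plus strand (124512405 to 124523443) and C1s1 on the minus strand (124530345 to 124542359). C1ra had 1.12, 2.17 and 1.12 FPKM in LL, 12.3, 8.80 and 6.58 in SL, 0.346, 0.233 and 0.401 in LS, and 0.236, 0.253 and 0.636 in SS. C1s1 had 1.08, 1.64 and 1.15 FPKM in LL, 9.36, 6.43 and 5.95 in SL, 0.534, 0.413 and 0.521 in LS, and 0.488, 0.370 and 0.277 in SS. For both, SL was highest, LL was next without overlap, and LS and SS overlapped. Within SL, replicate 1 was the highest library and replicate 3 the lowest for both genes, as also for C4b, Cfb and Serping1.

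The RefSeq promoter windows of this neighbouring pair are shown because the pair had the most similar pattern of any 2 of the 8 genes (GRCm38.p6; C1ra plus strand, chr6:124512371-124512670; C1s1 minus strand, first of 2 starts, chr6:124542310-124542609). The RefSeq start of C1ra lies 216 bases inside the deposited gene. Capitals in C1ra mark a match to the C/EBP motif on the opposite strand (as TTNNGCAA) that begins 16 bases after the start and one to the STAT motif TTCNNNGAA that begins 32 bases after it. Capitals in C1s1 mark a C/EBP match, also on the opposite strand, that begins 242 bases before the start.
C1ra: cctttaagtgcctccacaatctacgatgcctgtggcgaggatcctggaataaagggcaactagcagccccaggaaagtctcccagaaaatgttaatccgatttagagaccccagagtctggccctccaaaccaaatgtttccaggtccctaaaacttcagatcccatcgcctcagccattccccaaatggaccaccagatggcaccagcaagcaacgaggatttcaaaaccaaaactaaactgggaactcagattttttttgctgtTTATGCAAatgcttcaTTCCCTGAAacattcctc
C1s1: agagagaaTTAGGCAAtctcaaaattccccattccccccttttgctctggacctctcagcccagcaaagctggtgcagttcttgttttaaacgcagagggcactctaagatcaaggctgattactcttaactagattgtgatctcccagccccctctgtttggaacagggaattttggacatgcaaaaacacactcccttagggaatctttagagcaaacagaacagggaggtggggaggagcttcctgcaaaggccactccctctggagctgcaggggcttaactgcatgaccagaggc
The STAT motif reads the same on both strands and occurs in 8.3% of promoter windows. The window at the second C1s1 start holds no match to the motifs searched.

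C1ra rose by 3.46 in SL against SS (SE 0.26, limma adjusted p = 3.71e-06) and C1s1 by 3.12 (SE 0.17, adjusted p = 3.60e-07). In LL against LS, C1ra rose by 1.22 (SE 0.26, adjusted p = 0.0310) and C1s1 by 0.84 (SE 0.17, adjusted p = 0.0254). Neither call held in every fit that left out a library. That of C1ra was lost without LL replicate 2 (adjusted p = 0.117), LL replicate 3 (0.0642) or LS replicate 1, 2 or 3 (0.0593, 0.132 and 0.0833). That of C1s1 was lost without LL replicate 2 (0.110), LL replicate 3 (0.0712), LS replicate 2 (0.113) or LS replicate 3 (0.0805). Limma voom on whole fragments called neither (adjusted p = 0.0835 for C1ra and 0.0685 for C1s1).

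The interaction was -2.25 for C1ra (SE 0.36, limma adjusted p = 0.00398) and -2.28 for C1s1 (SE 0.24, adjusted p = 0.000276). With voom that of C1ra was not called (-2.58, adjusted p = 0.102). In LL against SL, C1ra fell by 2.30 (adjusted p = 0.000184) and C1s1 by 2.10 (adjusted p = 2.35e-05). The ratio of C1ra to C1s1 in FPKM was 0.976 to 1.33 in LL, 1.11 to 1.37 in SL, 0.565 to 0.770 in LS and 0.484 to 2.30 in SS. All LS ratios were below 1, all SL ratios above 1, and the SS libraries spread over both sides, with replicate 3 highest.

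Cfb, the factor B gene of the alternative pathway, was the lowest of the 8 genes in every group. It had 0.0854, 0.175 and 0.165 FPKM in LL, 0.718, 0.716 and 0.549 in SL, 0.0522, 0.0528 and 0.0384 in LS, and 0.0831, 0.0410 and 0.0767 in SS. These values stand on 6 to 11 fragments per library in LL, 28 to 43 in SL, 2 to 3 in LS and 2 to 4 in SS. SL lay above all other libraries, and LL above all LS and SS libraries. Cfb rose by 1.03 in SL against SS (SE 0.15, limma adjusted p = 0.000856), and LL was 0.85 below SL (log2 difference -0.85, adjusted p = 0.00463). Since Cfb entered the test only through SL, the direction of both differences was fixed by the filter, and these p-values lend them no support.

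For LL against LS the log2 difference of Cfb was 0.23 (SE 0.15, limma adjusted p = 0.596). Its interaction of -0.81 missed the threshold (SE 0.22, adjusted p = 0.0591), and passed it with a pseudocount of 1 FPKM (-0.51, adjusted p = 0.0393) and with no filter (-0.81, adjusted p = 0.00636). SL enters the interaction too, so the filter favoured a negative sign, and the p-values of the filtered fits lend it no support. The pseudocount sets the size of this gene's changes. Its SL against SS difference was 2.19 with a pseudocount of 0.1 FPKM, 0.64 with 1 FPKM and 3.16 with voom, and was called in each. Without any of the SL libraries Cfb left the test, since it then had too few libraries at 0.5 FPKM. Of its 2825 exonic bases, 79.5% are shared with the read-through gene Gm20547 on the same strand, which is listed at 0 in every library. The sources used here do not give how fragments in both genes were counted, so the level of Cfb is uncertain.

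Serping1, the C1 inhibitor gene (chromosome 2, 84765387 to 84775444, minus strand), had 6.73, 5.67 and 5.91 FPKM in LL, 26.8, 15.5 and 14.4 in SL, 4.91, 3.55 and 3.46 in LS, and 3.94, 3.44 and 4.12 in SS. SL libraries were the highest, with replicate 1 well above the other two, and LL lay just above LS and SS. Serping1 rose by 2.11 in SL against SS (SE 0.20, limma adjusted p = 2.62e-05), and the interaction was -1.53 (SE 0.28, adjusted p = 0.00862). LL lay below SL (log2 difference -1.50, SE 0.20, adjusted p = 0.000680). In LL against LS its difference of 0.57 was not called (SE 0.20, adjusted p = 0.218), and without SL replicate 1, which enters through the shared spread, it was (adjusted p = 0.0317).

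The protease C1s1 and its inhibitor Serping1 changed by different amounts. The ratio of C1s1 to Serping1 in FPKM was 0.160 to 0.289 in LL, 0.350 to 0.415 in SL, 0.109 to 0.151 in LS and 0.0672 to 0.124 in SS. LL and SL were each separate from all other groups, and LS and SS overlapped. The inhibitor was the more abundant in all 12 libraries, and the ratio was not tested.

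**Figure D2:**
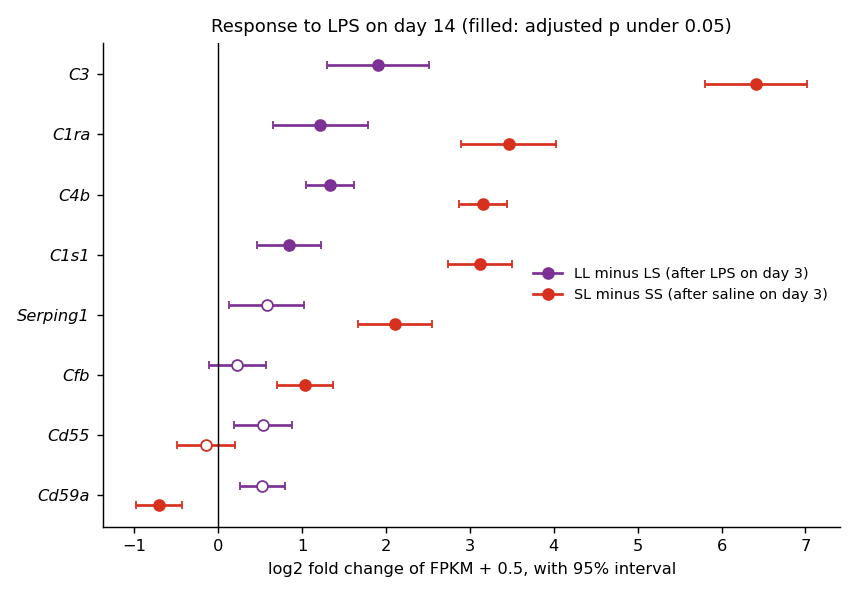
Log2 difference (FPKM + 0.5) with its 95% interval for each of the 8 genes, for LL minus LS (purple) and SL minus SS (red), with filled points for an adjusted p under 0.05. The points of C3 stand farthest apart, at 1.90 and 6.41, and those of Cd59a lie on opposite sides of 0, at 0.53 and -0.70.

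Cd55 and Cd59a, which encode membrane-bound inhibitors, did not rise with the soluble components in SL against SS. In LL against LS their differences (0.53 each) lay near that of Serping1 (0.57), and none of these was called. Cd55 (chromosome 1, 130439027 to 130462744, minus strand) had 1.99, 2.14 and 3.03 FPKM in LL, 1.57, 1.84 and 1.94 in SL, 1.72, 1.67 and 1.09 in LS, and 2.13, 1.83 and 2.12 in SS. LL lay above SL and LS, and overlapped SS. No comparison called it. The limma difference was -0.15 in SL against SS (95% interval -0.49 to 0.20), 0.53 in LL against LS (0.19 to 0.88, adjusted p = 0.129) and 0.68 for the interaction (0.19 to 1.17, adjusted p = 0.126). A change in SL of the size seen for Serping1 lies outside that first interval.

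Cd59a (chromosome 2, 104095801 to 104115354, plus strand) had 2.24, 2.76 and 3.55 FPKM in LL, 1.85, 1.72 and 1.84 in SL, 1.95, 1.87 and 1.59 in LS, and 3.05, 3.36 and 3.35 in SS. LL and SS overlapped at the upper level, and SL and LS overlapped at the lower one, with no library between. Its promoter window is shown because it was the only 1 of the 8 genes called lower after LPS on day 14 (RefSeq on GRCm38.p6, plus strand, chr2:104095551-104095850). Capitals mark its 1 match to the interferon response motif TTTCNNTTTC, on the opposite strand, 187 bases before the start.
Cd59a: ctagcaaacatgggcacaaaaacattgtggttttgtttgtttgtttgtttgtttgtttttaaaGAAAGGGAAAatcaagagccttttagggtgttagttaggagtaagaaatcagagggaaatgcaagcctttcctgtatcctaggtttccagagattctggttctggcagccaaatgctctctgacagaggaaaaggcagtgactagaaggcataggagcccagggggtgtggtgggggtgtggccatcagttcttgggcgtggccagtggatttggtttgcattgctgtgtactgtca
That motif, on either strand, occurs in 3.44% of promoter windows. The Cd55 window holds no match to any of the motifs searched.

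Cd59a fell by 0.70 in SL against SS (log2 difference -0.70, SE 0.12, limma adjusted p = 0.00288), to 0.554 of the SS mean. In LL against LS it was 0.53 higher (SE 0.12, adjusted p = 0.0510), which missed the threshold and passed it without LL replicate 1 (0.66, adjusted p = 0.0136). The interaction was 1.23 (SE 0.17, adjusted p = 0.00183). LL was 0.52 above SL (SE 0.12, adjusted p = 0.0226), a call lost without LL replicate 2 (0.0620), LL replicate 3 (0.0604), SL replicate 2 (0.0841) or SL replicate 3 (0.0579).

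Transthyretin (Ttr), the most abundant transcript of the choroid plexus, moved with Cd59a. Ttr was at 2169, 2264 and 3086 FPKM in LL, 853, 838 and 605 in SL, 1087, 47.7 and 14.9 in LS, and 2455, 2093 and 2299 in SS. Over 8 choroid plexus markers the summed level was 2213 to 3153 FPKM in LL, 617 to 867 in SL, 17.6 to 1114 in LS and 2136 to 2510 in SS, and no marker was at 0 in all libraries of a group. Both Ttr and Cd59a were thus high in LL and SS and low in SL and LS. With the choroid plexus covariate these Cd59a calls did not hold: SL against SS was -0.56 (adjusted p = 0.0783), the interaction 0.86 (adjusted p = 0.435) and LL against SL 0.38 (adjusted p = 0.298). The score differs between the groups, and a fit that includes it also takes away differences that run parallel to it. The part of choroid plexus tissue in the Cd59a result was not tested.

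**Figure D3:**
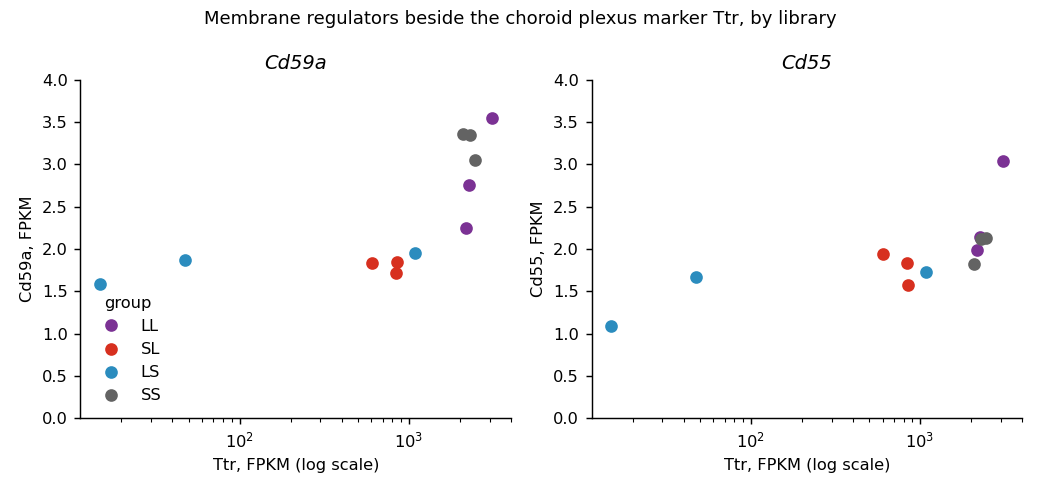
Cd55 and Cd59a (FPKM, vertical axes) against Ttr (FPKM, log axis) in the 12 libraries, coloured by group. For Cd59a the LL and SS libraries lie at upper right, with Ttr of 2093 to 3086 FPKM, and the SL and LS libraries lower and to the left, with Ttr of 14.9 to 1087 FPKM.

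LPS on day 3 followed by saline (LS against SS) left few differences in these genes. By limma none of the 8 was called higher, where 0.147% of tested genes were, and 1, Cd59a, was called lower, where 0.164% were (-0.71, SE 0.12, adjusted p = 0.0496). The call of Cd59a stood at the threshold and was lost in 9 of the 12 fits that left out a library, with adjusted p of up to 0.187. At an unadjusted p under 0.05, 1 gene was higher and 2 were lower, and limma voom called none higher and 1 lower. C3 and C4b lay higher in all LS than in all SS libraries without overlap, as 9.36% of tested genes did. Neither was called (C3 0.50, SE 0.28, adjusted p = 0.496; C4b 0.41, SE 0.13, adjusted p = 0.212). Cd55 and Cd59a lay lower without overlap, as 8.63% of tested genes did.

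Against SS, the LL animals still had higher C3, C4b, C1ra and C1s1. These 4 calls compare with 2.13% of tested genes called higher. By limma 0 of the 8 were called lower, where 0.283% of tested genes were, and none was lower at an unadjusted p under 0.05 or by voom. C3 rose by 2.41 (SE 0.28, adjusted p = 0.000570), C4b by 1.75 (SE 0.13, adjusted p = 2.17e-05) and C1s1 by 1.02 (SE 0.17, adjusted p = 0.00758). The rise of C1ra (1.16, SE 0.26, adjusted p = 0.0413) was lost in 9 of the 12 fits that left out a library, with adjusted p of up to 0.157. Serping1 was 0.61 higher and not called (SE 0.20, adjusted p = 0.199), though it was without SL replicate 1 (adjusted p = 0.0236). These comparisons share groups with those above, so their values are not independent of them.

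The ranking of the 8 genes by FPKM changed with the treatment. In SL, C3 was highest, above C4b and Serping1, which overlapped, then came the pair C1ra and C1s1, then Cd59a and Cd55, and last Cfb. In SS, Serping1 was highest, Cd59a second, C4b and Cd55 overlapped, and C3 stood just above Cfb. In LL, C4b and Serping1 led, and C3, Cd59a, Cd55, C1ra and C1s1 overlapped along a chain of neighbours. In LS, Serping1 and C4b overlapped at the top, and Cd59a and Cd55 lay above C3, C1s1 and C1ra. All 8 genes were higher in LL than in LS without overlap between the libraries, as 11% of tested genes were.

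Patterns over the 12 libraries were compared as the root mean square difference of log2 values, each gene taken relative to its own SS mean. Among the 8 genes C1ra and C1s1 were the closest pair (0.319), then Cd55 and Cd59a (0.391) and C4b and C1s1 (0.395), and C3 and Cd59a were the farthest apart (3.85). Among 12830 other protein-coding genes, the nearest to C3 were the chemokine genes Ccl2 (0.499) and Cxcl10 (0.601). Nearest to C4b was the class I histocompatibility gene H2-Q4 (0.176), one of a family with near-identical copies. Cp, the gene for ceruloplasmin, a copper-carrying oxidase, was near both C1s1 (0.157) and C1ra (0.246), with Ifitm1 nearest to C1ra (0.221) and the formyl peptide receptor gene Fpr2 second for C1s1 (0.178). For Serping1 they were the kinase gene Fgr (0.176) and the integrin gene Itga5 (0.185), and for Cfb Mapkapk2 (0.0675) and the zinc transporter gene Slc39a14 (0.0875). Slc16a12, a transporter gene, was near Cd59a (0.154), and nearest to Cd55 were Tmem237 (0.133) and Btd (0.138). All values come from the same libraries and describe likeness on the log2(FPKM + 0.5) scale only, where the pseudocount shrinks changes of low genes. Cfb averaged 0.661 FPKM in SL and 0.0669 in SS, whereas Mapkapk2 averaged 19.8 in SL and 9.28 in SS, so their changes in FPKM were not alike. Likewise Serping1 averaged 18.9 FPKM in SL and 3.83 in SS, and Fgr 1.95 in SL and 0.0545 in SS.

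Of 47 other complement genes, 20 passed the filter on low values. In SL against SS limma called 11 of these higher, where 7.06% of all tested genes were, and 2 lower, where 3.77% were. In LL against LS it called 8 higher, where 2.4% of tested genes were, and 5 with the choroid plexus covariate. C1qa, C1qb and C1qc encode C1q, which starts the classical pathway and is made by microglia. C1qc was at 43.8 ± 2.11 FPKM in LL, 33.3 ± 4.30 in SL, 22.5 ± 1.25 in LS and 14.5 ± 0.654 in SS (SD, n = 3 each), highest in LL. It rose by 1.17 in SL against SS (SE 0.08, limma adjusted p = 2.57e-06) and by 0.95 in LL against LS (SE 0.08, adjusted p = 0.000167). By limma the C1q interactions were not called: -0.53 for C1qa (adjusted p = 0.148), -0.32 for C1qb (0.422) and -0.22 for C1qc (0.392). Those of C1ra and C1s1, whose products C1q binds, were -2.25 and -2.28. Between LL and SL, C1qc was 0.40 higher in LL (SE 0.08, adjusted p = 0.0121).

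Of 8 receptor genes 4 were tested, and all 4 had negative interactions. C3ar1, the receptor for the C3a fragment, was at 1.64 ± 0.0479 FPKM in LL, 4.22 ± 0.389 in SL, 0.511 ± 0.0735 in LS and 0.299 ± 0.0249 in SS (SD, n = 3 each). Its interaction was -1.48 (SE 0.13, adjusted p = 9.20e-05). C5ar1, the receptor for C5a, had an interaction of -2.02 (SE 0.23, adjusted p = 0.000431). Those of Itgb2 and Itgam, the chains of complement receptor 3, were -1.16 (adjusted p = 0.000292) and -0.58 (adjusted p = 0.0394). All 4 were higher in SL against SS and in LL against LS. Across the 20 genes limma called 4 interactions negative (3.19% of tested genes) and 2 positive (2.14%). With the choroid plexus covariate none was called in either direction, and without LS replicates 2 and 3 together 3 were called negative and 0 positive. C5ar2, the second C5a receptor, was too low to be tested and differed from the other four. It had 0.441, 0.593 and 0.356 FPKM in LL, 0.132, 0.131 and 0.156 in SL, 0.235, 0.349 and 0.381 in LS, and 0.247, 0.277 and 0.289 in SS, on 9 to 47 fragments a library. SL was below every other group without overlap.

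Among the other genes, Cfp (properdin, 0.48), Clu (clusterin, 0.43) and C8g (0.42) rose in SL against SS by limma. Vtn (vitronectin, which blocks the pore) fell by 0.61 and Colec12 (a scavenger receptor collectin) by 0.79 in SL against SS, and both had positive interactions (0.71 and 1.07). As for Cd59a, these SL against SS and interaction calls were lost with the choroid plexus covariate, and their interaction calls also without LS replicates 2 and 3 together. In LS against SS, C1qa (0.86, adjusted p = 0.0248) and C1qc (0.62, adjusted p = 0.0178) were called higher, where 0.147% of tested genes were. Over the fits that left out a library the count of such calls among the 20 genes ran from 0 to 3, and was 0 without LS replicate 2, LS replicate 3 or any SS replicate. Of 7 genes of the terminal pore only C8g passed the filter on low values. The median log2 difference of the 20 genes was 0.43 in SL against SS and 0.19 in LL against LS.

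**Figure D4:**
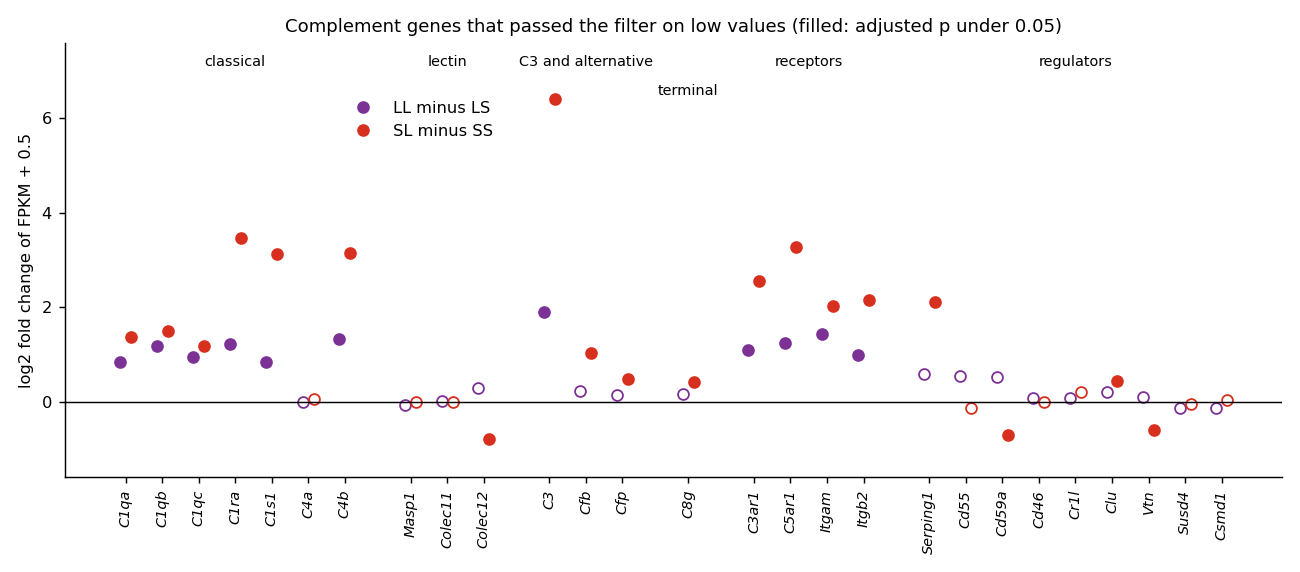
Log2 difference (FPKM + 0.5) of the tested complement genes, ordered by role, for LL minus LS and SL minus SS, with filled points for an adjusted p under 0.05; the 8 genes of the report and others on the complement list are shown. C3, C1ra, C1s1, Serping1, C5ar1 and C3ar1 have SL minus SS points far above their LL minus LS points. Those of C1qa, C1qb and C1qc stand closer together.

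Summed astrocyte, neutrophil and monocyte markers were highest in SL, as were the soluble complement genes, and summed microglial markers were not. In LL against LS the astrocyte sums overlapped, and limma called 0 of the 5 astrocyte markers. Summed over 5 astrocyte markers the level was 271 to 295 FPKM in LL, 546 to 773 in SL, 274 to 288 in LS and 252 to 260 in SS, mainly through Gfap (116 to 130 in LL, 357 to 542 in SL, 98.3 to 113 in LS and 85.0 to 88.8 in SS). Over 6 neutrophil markers it was 3.39 to 5.35 FPKM in LL and 109 to 221 in SL. In LS it was 1.14 to 1.66 FPKM and in SS 0.785 to 1.33. The SL sum came mainly from S100a9 (67.5 to 135 FPKM) and S100a8 (35.9 to 79.4), and 3 of the 6 markers were tested. Ly6g was at 0 in all LL and LS libraries. In SL it was at 0.0551 to 0.10 FPKM and in SS at 0 to 0.0623, an overlapping range. Over 3 monocyte markers the summed level was 0.445 to 1.03 FPKM in LL and 1.61 to 2.54 in SL. In LS it was 0 to 0.0650 FPKM and in SS 0.110 to 0.247. Over 5 microglial markers it was 103 to 107 FPKM in LL, 57.2 to 73.0 in SL, 81.8 to 86.7 in LS and 72.1 to 76.2 in SS, a sum of genes that did not move together. In LL against LS limma called 3 of them higher and 1 lower. The lower one, P2ry12, a receptor of resting microglia, was at 5.26 to 6.76 FPKM in LL, 1.13 to 1.87 in SL, 9.94 to 12.2 in LS and 13.5 to 14.6 in SS. Hepatocyte markers, checked since the liver makes most plasma complement, summed to at most 0.468 FPKM in any library. The part of changed cell numbers in the complement results was not tested.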

How the data were processed

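PolyA RNA of 12 hippocampi (4 groups, 3 animals each) was sequenced on an Illumina instrument, per the labels. FPKM values in the deposited table were made by the authors, with HISAT2 2.0.5 and featureCounts 1.5.0-p3 on mm10, per the submitters' processing notes. The strand setting, the treatment of fragments shared between genes and the FPKM divisor were found in none of the sources used here.

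Whole fragments were recovered from FPKM times gene length (100% of values above 0, tolerance 0.01) and gave the depths. The divisor that the FPKM values imply differed from these totals by -1.96% (SL replicate 2) to 3.13% (LL replicate 1). Replicates of a group all differed beyond sampling noise (chi-square per gene 3.78 to 12.5). The test covered genes that reached 0.5 FPKM in 3 or more libraries, as log2(FPKM + 0.5), which understates changes of low genes. limma 3.58.1 (R 4.3.3) was fitted with 1 mean per group, 8 residual degrees of freedom, moderation with a mean trend and two-sided tests, with Benjamini-Hochberg adjustment over 17687 genes in each of 6 comparisons. The procedure was tested on simulated data, with SL against SS changes in genes above a minimum of fragments and a fixed spread. That test does not cover low genes or interactions. An exact permutation test of 3 against 3 cannot go below p = 0.1 and was not used.

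The genes, lists, choroid plexus covariate and removal of LS replicates 2 and 3 were chosen with earlier results of these data known. That removal leaves 1 LS animal, so calls lost under it cannot be told apart from the loss of animals. Named beyond the 8 genes were their near copies, the 2 genes of most similar pattern for each (mean of at least 1 FPKM in a group), and other complement genes called in at least 1 comparison. A few genes that this rule names are not reported here. Deviations of same-numbered replicates correlated weakly (at most 0.0959), so the numbers were not treated as pairs in the main fit. Still, 9 of 12 libraries correlated best with their own number. Alternatives were other pseudocounts and filters, quantile and median scaling, the groups compared alone, limma voom, a replicate block, the covariate and each library left out.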

Additional observations from a re-analysis of the deposited data

Results flagged for a closer look

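For 6 of the 8 genes the response to LPS on day 14 differed between pups with LPS and pups with saline on day 3, tested as an interaction with limma. The interaction was -4.51 for C3 (adjusted p = 7.34e-05), -1.82 for C4b (0.000183), -2.25 for C1ra (0.00398), -2.28 for C1s1 (0.000276) and -1.53 for Serping1 (0.00862). For Cd59a it was 1.23 (0.00183). Among these 6 genes the sign was positive for Cd59a alone. Each of these 6 calls held without any single library, with adjusted p of at most 0.0257. With the choroid plexus covariate the calls of C1ra, C1s1, Serping1 and Cd59a were lost. The interaction was then -2.29 for C1ra (limma adjusted p = 0.303), -2.44 for C1s1 (0.0752) and -2.29 for Serping1 (0.103). None of these was smaller in size than without the covariate. That of Cd59a was smaller, at 0.86 (0.435).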

How the results depend on the processing

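Of 1072 values of the 8 genes recomputed under 23 other settings, 986 kept their direction and their side of the threshold, 71 lost the call, 7 gained one and 8 changed sign. The SL against SS calls of C3, C4b, C1ra, C1s1 and Serping1 held in every setting run.

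In LL against LS, where 4 genes were called, 2 were with a pseudocount of 1, with no filter, with the groups compared alone and with voom, 1 without LS replicates 2 and 3, 0 with the choroid plexus covariate, and 2 to 5 when a library was left out. In LS against SS the single call became 0 with pseudocounts of 0.1 and 1, no filter, quantile scaling, the replicate block, the groups compared alone, the covariate and without LS replicates 2 and 3, and 0 to 1 when a library was left out. Of 6 interaction calls, 2 (C3 and C4b) were made with the covariate. With a pseudocount of 1 or no filter there were 7, with Cfb added. The filter favours a negative interaction for Cfb, so its call with a pseudocount of 1 lends no support. Cd55 changed sign with the covariate in SL against SS (0.10) and in LS against SS (0.021), as did Cfb in LS against SS (0.017), and Cfb in LL against SS with quantile scaling (-0.15). None of these was called. Leaving out a library moved the LS against SS difference from -0.17 to 0.15 for C1ra and from -0.11 to 0.11 for Serping1. The cause of these changes was not tested.

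Over all tested genes, 1915 calls in SL against SS became 1219 with the covariate, and 1554 in LL against SL became 812 (913 without SL replicate 2). The 470 calls in LL against LS became 230 with the groups compared alone, 48 with the covariate, 69 without LS replicates 2 and 3, and 222 without LL replicate 3. The 942 interaction calls became 105 with the covariate and 420 without LS replicates 2 and 3. The 426 calls in LL against SS became 278 without LL replicate 2. The 55 calls in LS against SS ranged from 0 with the groups compared alone to 203 without LS replicate 1, with 83 at a filter of 2 FPKM, 169 with voom, 1 with the covariate and 2 without LS replicates 2 and 3.

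With the replicate number as a block, the replicate block fit called 7 genes in SL against SS, 3 in LL against LS, 6 for the interaction, 7 in LL against SL, 0 in LS against SS and 3 in LL against SS. The numbers are in the labels, but none of 18 same-numbered pairs had a correlation of deviations over 0.1 (-0.0696 to 0.0959). As a hint from the data, 9 of 12 libraries correlated best with their own number. The 3 animals per group limit what any of these comparisons can call, and Cfb, at 2 to 11 fragments outside SL, is limited by depth.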

Other observations

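Near copies and neighbours of the 8 genes, read as separate genes in the deposited table, were low. C4a, 65209 bases from C4b on chromosome 17 and close to it in sequence, was at 0.388 to 0.412 FPKM in LL, 0.509 to 0.543 in SL, 0.324 to 0.472 in LS and 0.364 to 0.633 in SS. The ratio of C4b to C4a was 19.0 to 25.1 in LL, 41.7 to 51.3 in SL, 6.20 to 11.1 in LS and 3.63 to 6.12 in SS, and the 4 ranges were separate. C1rb, a copy of C1ra, had 0 fragments in all LL, LS and SS libraries and 1 to 2 in each SL library. C1s2 was at 0.202 to 0.226 FPKM in LL, 0.166 to 0.194 in SL, 0.240 to 0.387 in LS and 0.152 to 0.305 in SS. Cd55b, 16017 bases from Cd55, had 0 to 2 fragments in any library.

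Cd59b lies 4613 bases from Cd59a. It had 1, 11 and 1 fragments in the SL libraries, where it was at 0.0363, 0.439 and 0.0426 FPKM, against 0.356 to 0.708 FPKM in SS. C2, whose product is cut by C1s, lies 85 bases from Cfb and shares 42.8% of its exonic bases with Gm20547. It was at 0.322 to 0.404 FPKM in LL, 0.231 to 0.415 in SL, 0.126 to 0.266 in LS and 0.164 to 0.349 in SS, and did not reach the filter on low values. The sources used here do not give how fragments that match both copies of a pair were counted, so the levels of these pairs are uncertain.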
